A study of Mus musculus with 12 samples.

Results

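A set of 833 chromatin regions carried called H3K27ac in every wild-type (WT) newborn mouse heart examined and in no heart whose cardiomyocytes had lost both RXRα and RXRβ (RXRab-/-, edKO). They were found by merging the regions called in 6 hearts, wherever they shared at least 1 bp, into 77817 regions on chromosomes 1 to 19. A merged region was kept when it was called in WT hearts 1, 3 and 4 and in none of edKO hearts 1, 3 and 6. The regions so chosen are 1.07% of all merged regions. The rule itself used the calls in the 6 hearts, so their absence from the edKO lists is how they were chosen and is no finding, and it was not tested.

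H3K27ac, acetylation of lysine 27 on histone H3, is placed by the acetyltransferases p300 and CBP and marks active promoters and enhancers. Enhancers carry the mark away from gene starts and tend to be specific to a cell type, while many promoters carry it in most tissues. These nuclear receptors, encoded by Rxra and Rxrb, pair on DNA with PPARs, LXRs and the receptors for retinoic acid and thyroid hormone, and recruit coactivators that include these acetyltransferases. PPAR-RXR pairs are best known in heart muscle for switching on genes that import and burn fatty acids, which replace glucose as the main fuel after birth.

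All hearts were whole hearts taken on the day of birth (postnatal day 0). The 3 WT hearts were compared with 3 edKO hearts, the labels' name for a cardiomyocyte-specific loss of both receptors, and each heart is a separate animal. The labels used here name no Cre driver, strain or sex. If the loss is confined to cardiomyocytes, other cell types of an edKO heart keep both genes, and mark held by those cells remains in every sample. Which cells lost the genes was not checked here. In bulk tissue, fewer marked cells and less mark per cell cannot be told apart. The 6 input samples were not used here.

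The lists held 56696, 61688 and 65203 regions on these chromosomes in WT 1, 3 and 4, against 46967, 47302 and 66532 in edKO 1, 3 and 6. The edKO 1 and edKO 3 lists held the fewest regions. In called base pairs, WT 1, 3 and 4 had 66097405, 67061428 and 58123851. The edKO 1, 3 and 6 lists had 65321888, 47034312 and 61597866, so by called length edKO 3 was the lowest and edKO 1 was not low. Read depth per heart is unknown, so a region missing from a list was not called, which is not the same as unmarked. Starts of 37 of 39 sarcomere and calcium handling genes lay within 1 kb of a region called in all 6 hearts. The same held for 13 of 13 fibroblast, 10 of 10 endothelial and 7 of 9 smooth muscle and pericyte marker genes. It held for only 2 of 8 epicardial, 2 of 7 erythroid, 1 of 9 leukocyte and 1 of 8 neural and Schwann cell marker genes. Only genes with a start in an incomplete RefSeq promoter table were counted, out of 51 sarcomere, 19 fibroblast and 21 endothelial genes. Peaks inside Xist, a gene active from the silenced X of females, were called in 1 heart of each genotype, WT 1 and edKO 6.

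A few of the regions restricted to WT hearts reached gene starts. They touched 27 RefSeq promoter windows (GRCm38.p6, 250 bases before to 50 after a gene start) of 24 protein-coding genes. The overlap ran from 8 to 300 bases, so a touched window need not have lost its call, and the start of Acvr2b, touched over 63 bases, also carries a region called in all 6 hearts. CpG, the dinucleotide that clusters in the promoters of widely used genes, was counted in each window. The median ratio of observed to expected CpG was 0.338, against 0.608 in 172 windows touched by regions called in exactly 3 hearts of mixed genotype. It was 0.792 in the 10796 windows touched by regions called in all 6 hearts and 0.586 over all 20084 windows. A ratio under 0.4 was found in 15 of 27 windows (55.6%), in 28.5% of the mixed windows, in 10.3% of those called in all hearts and in 38.4% of all windows. The 95% Wilson interval of the first share, 37.3% to 72.4%, includes the share of all windows.

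The following windows are shown to let these starts be compared, each read 5′ to 3′ along its gene with CG dinucleotides in capitals. The first is the start of Acot4, a peroxisomal acyl-CoA thioesterase gene, at chr12:84038129-84038428 (plus strand). The next ones are starts of Plin5, a lipid droplet protein gene of oxidative muscle, at chr17:56117249-56117548 (minus strand), of Lrtm1, which encodes a leucine-rich repeat membrane protein, at chr14:29017958-29018257 (plus strand), and of Fbp2, the muscle fructose-1,6-bisphosphatase gene, at chr13:62858351-62858650 (minus strand). The last, at chr4:59581313-59581612 (plus strand), is the start of Hsdl2, a dehydrogenase-like gene. It lay inside a region called in all 6 hearts and 2184 bp from a large WT-only region, and is shown for contrast.
Acot4: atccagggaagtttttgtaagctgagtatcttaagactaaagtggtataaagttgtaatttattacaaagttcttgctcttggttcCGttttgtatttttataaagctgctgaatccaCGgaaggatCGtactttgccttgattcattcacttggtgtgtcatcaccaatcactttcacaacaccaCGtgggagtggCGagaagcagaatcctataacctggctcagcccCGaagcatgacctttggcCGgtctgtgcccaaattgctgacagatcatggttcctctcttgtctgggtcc
Plin5: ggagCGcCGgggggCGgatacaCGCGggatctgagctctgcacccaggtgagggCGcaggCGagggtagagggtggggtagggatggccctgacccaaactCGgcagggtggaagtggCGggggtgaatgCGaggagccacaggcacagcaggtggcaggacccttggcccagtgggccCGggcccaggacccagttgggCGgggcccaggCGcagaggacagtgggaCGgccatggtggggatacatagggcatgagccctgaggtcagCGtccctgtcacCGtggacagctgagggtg
Lrtm1: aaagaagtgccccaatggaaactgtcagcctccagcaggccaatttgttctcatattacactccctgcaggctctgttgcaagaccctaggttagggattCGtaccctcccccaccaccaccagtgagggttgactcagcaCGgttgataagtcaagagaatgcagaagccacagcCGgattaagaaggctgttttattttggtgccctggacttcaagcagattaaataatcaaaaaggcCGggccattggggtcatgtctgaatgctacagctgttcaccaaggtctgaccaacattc
Fbp2: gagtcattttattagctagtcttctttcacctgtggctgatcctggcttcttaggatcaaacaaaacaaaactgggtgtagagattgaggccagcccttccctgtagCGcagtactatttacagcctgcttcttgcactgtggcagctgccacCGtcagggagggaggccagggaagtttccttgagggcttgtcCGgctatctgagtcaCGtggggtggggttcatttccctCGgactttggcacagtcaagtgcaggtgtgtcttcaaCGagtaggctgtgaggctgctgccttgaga
Hsdl2: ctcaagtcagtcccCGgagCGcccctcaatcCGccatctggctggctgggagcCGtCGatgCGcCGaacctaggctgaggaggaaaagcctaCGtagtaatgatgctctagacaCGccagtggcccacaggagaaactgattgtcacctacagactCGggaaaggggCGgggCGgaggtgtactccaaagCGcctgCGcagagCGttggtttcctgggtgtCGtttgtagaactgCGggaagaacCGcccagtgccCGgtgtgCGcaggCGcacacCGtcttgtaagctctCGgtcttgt
The first 4 hold 7, 16, 4 and 6 CG dinucleotides and the Hsdl2 window 23. Their CpG ratios were 0.482, 0.481, 0.22 and 0.292, against 0.837 at Hsdl2. A second Plin5 window had 0.587, and other touched windows were richer in CpG, with 0.876 at a start of Pde2a, 0.771 at Ccdc116 and 0.769 at Gabrb2.

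Matches to the site of PPAR-RXR pairs were few in these windows. The site was searched as AGGTCANAGGTCA on both strands, a direct repeat spaced by 1 base. No window of the 27 held an exact match, and 1 held a match with at most 1 mismatch (3.7%), against 96 of 20084 windows overall (0.478%). That window, at Gdf15 (chr8:70632407-70632706, minus strand), is shown with the match in capitals and was chosen after the search. Gdf15 encodes a circulating stress hormone of the TGF-β family.
Gdf15: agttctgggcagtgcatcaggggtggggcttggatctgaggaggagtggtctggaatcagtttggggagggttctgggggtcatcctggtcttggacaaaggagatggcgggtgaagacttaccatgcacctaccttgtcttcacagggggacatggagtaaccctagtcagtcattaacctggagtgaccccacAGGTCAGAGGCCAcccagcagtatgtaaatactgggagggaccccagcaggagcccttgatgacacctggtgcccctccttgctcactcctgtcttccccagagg
The WT-only region there (chr8:70631941-70632419) was weak and narrow, at 265, 286 and 479 bp in WT 1, 3 and 4. It reached only 13 bases into the printed window, and the match lies outside it. The same repeat spaced by 4 or by 5 bases, the sites of LXR-RXR and of retinoic acid receptor-RXR pairs, had no match with at most 1 mismatch, against 0.164% and 0.149% of all windows. For comparison, a loose MEF2 pattern (CTA and TAG spaced by any 4 bases) was in 2 of the 27 (7.41%, against 3.54% of all windows). A MEF2 site has only A or T in those 4 bases, and neither match did (GCCC at Acvr2b, TGCC at Gm12250). The GATA motif AGATAA was in 1 (3.7%, against 9.57%) and the E-box CANNTG in 22 (81.5%, against 68.7%), each on either strand. Most WT-only regions lie away from gene starts, and their sequence was not analysed here.

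Most WT-only regions were distal. Of the 833, 477 (57.3%) lay inside a protein-coding gene more than 1 kb from its ends and 59 (7.08%) lay within 1 kb of either end of a gene. A further 67 (8.04%) were intergenic within 10 kb of a gene, 152 (18.2%) lay at 10 to 100 kb and 78 (9.36%) lay over 100 kb away. Gene tables used here give gene ends without exons, so introns and exons were not separated. Regions called in 3 hearts of mixed genotype (n = 4994) were spread in much the same way, with 8.17% at gene ends and 56.2% inside genes. Regions called in all 6 hearts (n = 27782) lay at gene ends in 37.6% of cases.

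**Figure D1:**
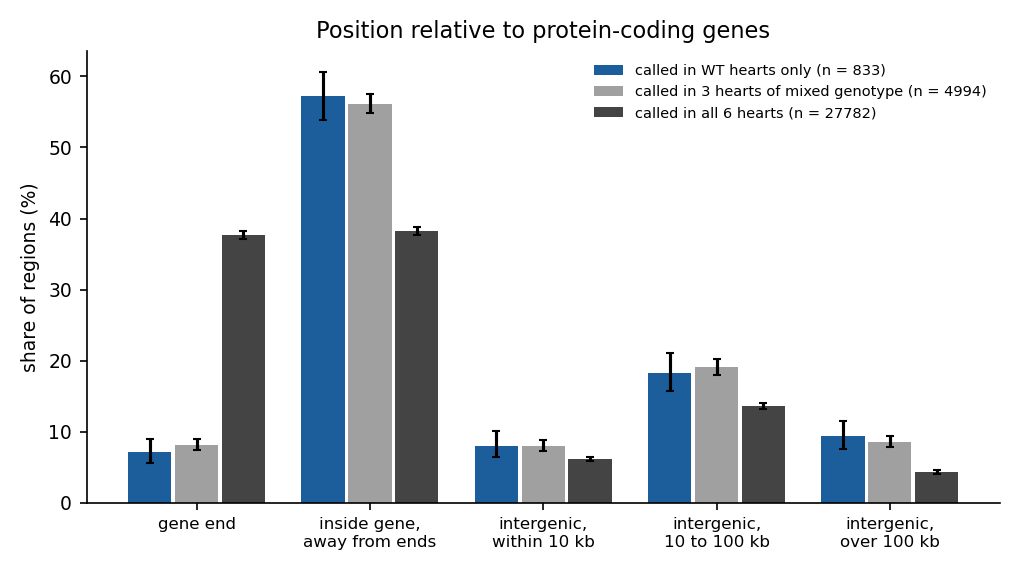
Share of regions (%, vertical axis) in each position class relative to protein-coding genes, for regions called in WT hearts only, in 3 hearts of mixed genotype and in all 6 hearts, with 95% Wilson intervals that treat regions as independent. WT-only and mixed regions have 7.08% and 8.17% at gene ends, against 37.6% of regions called in all hearts.

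Among regions called in all 3 WT hearts, the share called in no edKO heart was 0.535% at gene ends and 3.33% inside genes. For intergenic regions it was 2.97% within 10 kb of a gene, 3.11% at 10 to 100 kb and 4.69% over 100 kb away. Away from gene ends the share thus did not rise steadily with distance. Part of the gap between gene ends and the other classes went with strength. Each region was ranked within its own list by the authors' fold enrichment, as a percentile with 100 the strongest, and ranks were averaged over hearts. Below rank 20 the shares were 24.1% (7 of 29 regions), 22.5%, 14.1%, 18.8% and 32.8%, in the same order. Between ranks 20 and 40 the shares were 7.83%, 9.01%, 8.82%, 11.2% and 10.2%. At rank 40 and above they were 0.207%, 1.07%, 1.28%, 0.867% and 1.81%. That last band is wide and strength was not matched within it, so position and strength are not separated there. No test was made, since the calls are the rule.

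The typical WT-only region was weak. Median ranks were 28.6, 29.9 and 34.5 in WT 1, 3 and 4, and the median of the mean rank was 30.2, against 26.8 for mixed regions and 72.7 for regions called in all hearts. Median widths were 473, 463 and 408 bp in WT 1, 3 and 4. Mixed regions measured 425, 403 and 354.5 bp in the same hearts. WT-only regions took up 0.786%, 0.727% and 0.79% of all called base pairs in the 3 WT hearts. Widths averaged over hearts ran from 253 to 3488 bp. The 3 WT hearts therefore gave similar low ranks, and all 3 placed the set far below the regions shared by all hearts.

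A strong tail stood out from that body. A mean rank of 70 or more was reached by 27 WT-only regions (3.24%) and by 1 of 4994 mixed regions (0.02%). A mean width of at least 1000 bp was reached by 69 WT-only regions (8.28%) and 37 mixed regions (0.741%). Mixed regions are averaged in part over edKO hearts, so the same 3 WT lists give a closer comparison. There, 16505 regions called in all WT hearts had a mean rank of at least 70. Of these, 16401 were called in all edKO hearts, 59 in 2 of them, 18 in 1 and 27 in none. At rank 80 and above the counts were 11453, 7, 1 and 9. At rank 50 and above, 105 regions were called in no edKO heart and 241 in 1, and at ranks 20 to 30 the counts were 253 and 531. These counts describe the calls the rule used.

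**Figure D2:**
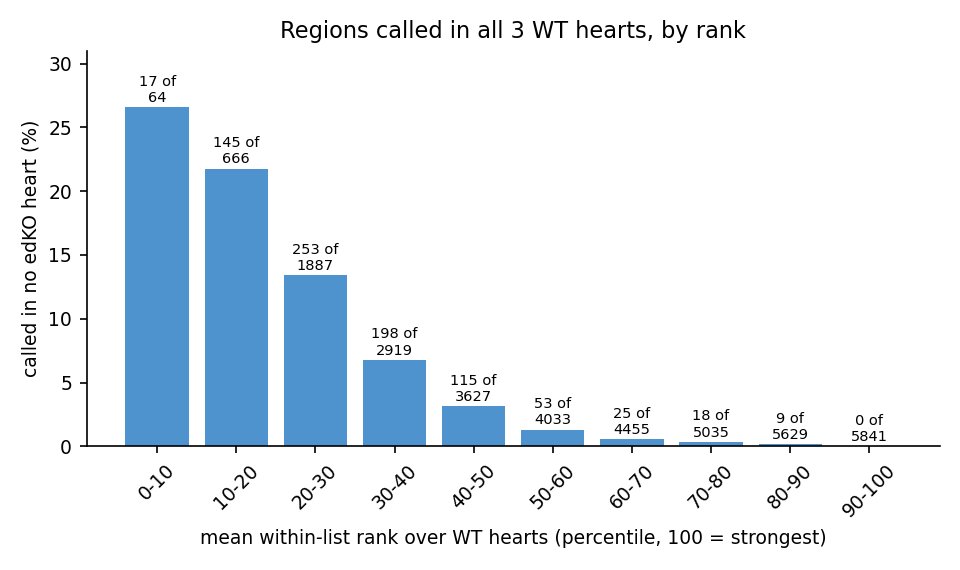
Regions called in all 3 WT hearts, binned by mean within-list rank (percentile, horizontal axis). The vertical axis is the share called in no edKO heart (%), which falls from 26.6% in the lowest bin to 0.16% at ranks 80 to 90 and 0% above, with the counts over each bar.

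The number of WT-only regions depends on the lists. Just outside the rule lay 1889 regions called in all WT hearts and 1 edKO heart, 1286 of them in edKO 6, which has the longest list. Their median WT rank was 32.9 and their median width 502 bp. A further 2935 regions were called in 2 WT hearts and no edKO heart, with a median rank of 24.6. Just inside, the weakest 2 WT-only regions, in Phf3 and Cfap20, had mean ranks of 4.7 and 4.07. The reverse pattern, called in all edKO hearts and no WT heart, held for 57 regions (0.0732% of all), none with a rank of at least 70. With each list shortened to its best 46967 regions, 413 regions were restricted to WT hearts and 135 to edKO hearts, and 265 of the 833 (31.8%) overlapped those 413. Leaving out a heart loosens the rule and gave 1834 regions without WT 1, 1537 without WT 3 and 2063 without WT 4. It gave 1290 without edKO 1, 979 without edKO 3 and 2119 without edKO 6.

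The best-ranked regions lay near genes of varied function, most of them outside fatty acid metabolism. All had 0 bp called in each edKO heart, as the rule requires. The first lay at the downstream end of Oscar (chr7:3608170-3610027), which encodes an immunoglobulin-like receptor first described in osteoclasts. It spanned 1440, 1858 and 1437 bp in WT 1, 3 and 4, at ranks of 81.1, 85.3 and 88.8. The next was intergenic, 193313 bp from Prox1 (chr1:190364141-190366890), a homeobox transcription factor gene needed in lymphatic vessels and heart muscle. It spanned 2077, 1999 and 2750 bp, at ranks of 82.6, 85.3 and 85.0. No region called in all 6 hearts lay closer to it than 174066 bp.

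A region inside Nrip1 (chr16:76293270-76295325), the gene of a corepressor that nuclear receptors recruit when bound by ligand, spanned 1892, 2022 and 1480 bp. Its ranks were 82.9, 86.5 and 83.0. A region inside Zranb3 (chr1:127989237-127991300), which encodes a DNA translocase that acts at stalled replication forks, spanned 2048, 1747 and 1621 bp. The 3 WT hearts were close to each other at each of these sites, with ranks within 10 points.

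The widest of all lay inside Hsdl2 (chr4:59583748-59587633), at 2852, 3761 and 3852 bp, with ranks of 76.4, 84.5 and 87.7. The neighbouring region called in every heart, which holds the Hsdl2 promoter printed above, spanned 2968, 2908 and 3334 bp in WT 1, 3 and 4. It spanned 2750, 2272 and 2342 bp in edKO 1, 3 and 6. The edge of that retained region was 186 bp from the WT-only region, and the gene's start was 2184 bp from it.

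Another wide region lay 2345 bp from Wnt9a (chr11:59335898-59339302), the gene of a secreted Wnt ligand, at 2806, 2541 and 3405 bp. A further region lay 161849 bp from Pou3f3 (chr1:42532028-42533918), a POU-domain transcription factor gene best known in the nervous system. It spanned 1891, 1778 and 1828 bp. A region inside Adra1b, the α1B-adrenergic receptor gene (chr11:43789641-43791505), spanned 1488, 1547 and 1865 bp. These 3 regions had mean ranks of 80.5, 81.2 and 77.2.

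The remaining regions of the best 12 were nearest to Cyyr1 (57832 bp away), Acot2, Elmod3 and Shld1 (45396 bp away), with mean ranks from 77.2 to 82.1. Elmod3 encodes a GTPase-activating protein and Shld1 a subunit of the shieldin complex of DNA repair. Of these, the region near Shld1 varied most, at ranks of 80.8, 66.3 and 84.6 and widths of 2007, 2203 and 3294 bp. The Acot2 region, 4198 bp from that mitochondrial thioesterase gene, spanned 2244, 2732 and 2692 bp.

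**Figure D3:**
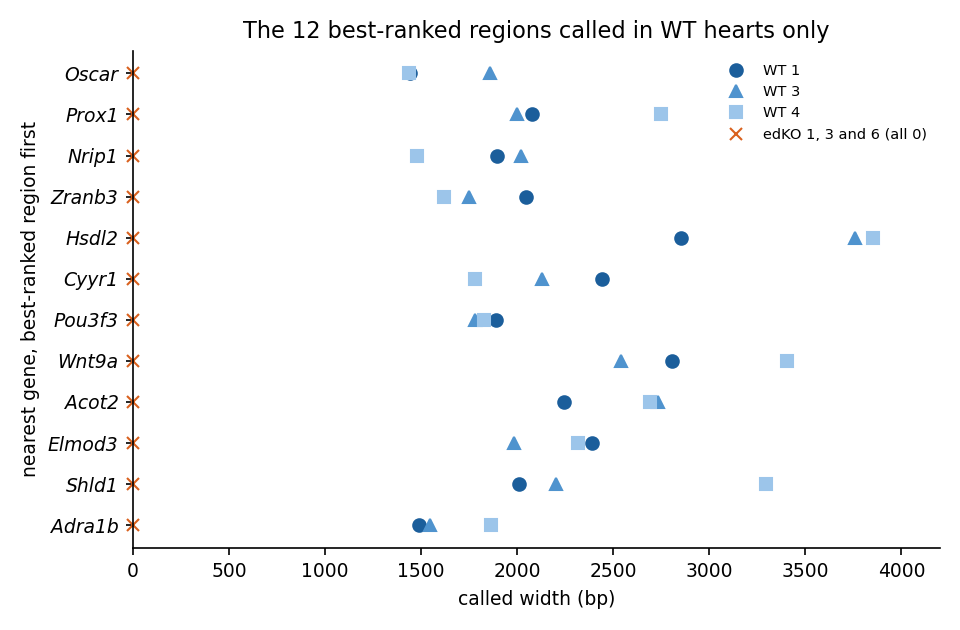
Called width (bp, horizontal axis) of the 12 best-ranked regions restricted to WT hearts, named by nearest gene, with a symbol per WT heart and a cross at 0 bp for the 3 edKO hearts. Every WT point lies between 1437 and 3852 bp.

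At gene ends the best-ranked regions after Oscar were at Tspan3, Acot4, Plin5, Lgals7 and Armh2. The Plin5 region (chr17:56116683-56118072) covers the gene's start and spanned 772, 1104 and 1121 bp, but its rank was 44.1 in WT 1 against 80.3 and 82.0 in WT 3 and 4. The Acot4 region (chr12:84038226-84039109) was even, at 829, 828 and 774 bp. The region at Armh2 was uneven, at ranks of 79.0, 68.3 and 18.9. Ranks of the other 2, near the tetraspanin gene Tspan3 and the galectin gene Lgals7, averaged 75.1 and 59.2.

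Retained mark was often close by, though no more often than for mixed regions. The gap to the nearest region called in all 6 hearts had a median of 9275 bp, with quartiles of 2275 and 30999 bp. Of the 833 regions, 125 (15.0%) lay within 1 kb of such a region and 434 (52.1%) within 10 kb. In mixed regions the median gap was 7713 bp, and 18.9% lay within 1 kb and 55.4% within 10 kb. Of 600 WT-only regions whose nearest gene was within 100 kb and has a window in the promoter table, 478 (79.7%) had that gene's start within 1 kb of a region called in all hearts, against 78.3% for mixed regions. At these genes the WT-only region was missing from the edKO lists, as the rule requires, while the start was still called.

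The best-ranked regions within 1 kb of a retained region, after Hsdl2, were near Armc6, Corin, Slc25a33 and Hadha. The Corin region (chr5:72422079-72424381) lay 100 bp from a retained region inside this gene, which encodes the protease that activates natriuretic peptides, and spanned 2210, 1545 and 1525 bp. The Armc6 region (chr8:70214899-70217863) also lies 2617 bp from the start of Slc25a42, a mitochondrial carrier of coenzyme A, and spanned 2265, 2401 and 2851 bp. Slc25a33, a mitochondrial pyrimidine nucleotide carrier gene, had a region 14666 bp away (chr4:149788934-149790709) at 1668, 1627 and 1776 bp. The Hadha region (chr5:30149873-30151050) was narrower, at 982, 1044 and 664 bp, and stood 17 bp from a retained region.

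At the other extreme, the most isolated region was 1757938 bp from any region called in all hearts. It lay near Fgf14 (chr14:124741969-124742446) and was weak, with a mean rank of 17.4. The other isolated regions, in Fhit, in Gabrb2, near Sh2d4b and at the start of Lrtm1, lay 495998 to 965887 bp from retained mark. Only Lrtm1 ranked above 30, at 76.0, 75.03 and 10.3 in WT 1, 3 and 4, so WT 4 was far below the other WT hearts there.

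Most retained regions beside WT-only regions were narrower in the edKO mean, though the medians of single hearts overlapped between genotypes. Within 5 kb of a WT-only region, 299 regions were called in all 6 hearts, with median widths of 2107, 1971 and 1771 bp in WT 1, 3 and 4. In edKO 1, 3 and 6 the medians were 1804, 1401 and 1657 bp. In 67 of them (22.4%) every edKO heart was narrower than every WT heart, against 6.05% of all 27782 regions called in all hearts and 6.75% of 1941 neighbours of mixed regions. The opposite order held in 2 of them (0.669%), against 1.21% of all. The median log2 difference in width, edKO minus WT, was -0.16 beside WT-only regions and -0.04 over all. These neighbours were chosen by a call in all 6 hearts and by distance to WT-only regions, which were selected on calls in these hearts. Their widths are therefore not independent of the rule, and no test is given. Beside regions called in all edKO hearts and no WT heart, the 17 neighbours so chosen had a median log2 difference of 0.12. The edKO mean was narrower in 5 of them (29.4%), against 238 of 299 (79.6%) beside WT-only regions. All edKO hearts were narrower than all WT hearts in 1 of the 17 and wider in 1. Mixed regions each had at least 1 edKO call, so their neighbours were not selected alike. The 299 were wider in WT than regions called in all hearts as a whole (medians of 1608, 1604 and 1382 bp). Over that whole, edKO 1, 3 and 6 had medians of 1695, 1257 and 1477.5 bp, so edKO 3 was narrow there too. Beside WT-only regions with a mean rank of at least 50, every edKO heart was narrower than every WT heart in 11 of 24 neighbours (45.8%). Beside the weaker ones this held for 56 of 276 (20.3%), with 1 neighbour near both kinds counted in each. The neighbours of the 2 kinds were not matched in width or rank, and a relation with strength was not tested.

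Among the neighbours with the largest differences were regions near Vldlr, Corin, Slc25a33 and Sh3bp5. The largest difference was at a neighbour in Impa2, with 2954, 2686 and 3005 bp in WT 1, 3 and 4. There edKO 1, 3 and 6 had 898, 342 and 385 bp. The neighbour near Vldlr (chr19:27174759-27177183), a lipoprotein receptor gene, measured 2248, 2425 and 2144 bp in WT 1, 3 and 4 against 874, 521 and 327 bp in edKO 1, 3 and 6. The Slc25a33 neighbour (chr4:149791043-149792976) measured 1174, 1453 and 1934 bp against 558, 410 and 502 bp. At Corin the genotypes overlapped (chr5:72442075-72444812), where WT 1, 3 and 4 had 2680, 2005 and 990 bp and the edKO hearts 491, 308 and 1137 bp. Other neighbours in Corin differed less, with log2 differences of -0.30 and -0.12. In the Sh3bp5 neighbour with the largest difference the genotypes did not overlap, with 2108, 2775 and 2656 bp against 688, 607 and 1576 bp. They overlapped at the other Sh3bp5 neighbours. These had 1088, 1372 and 1208 bp against 1126, 555 and 802 bp, and 1051, 613 and 273 bp against 417, 656 and 521 bp.

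**Figure D4:**
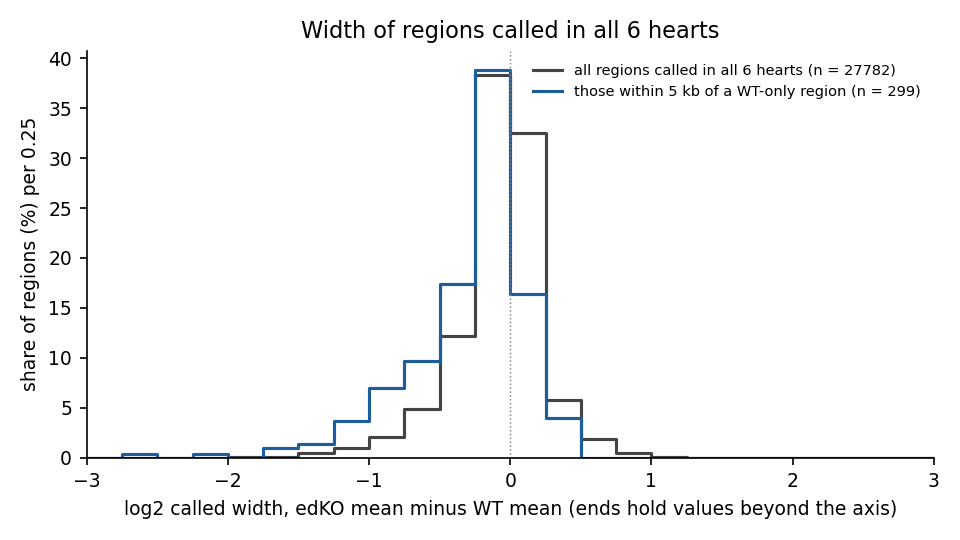
Distribution of the log2 difference in called width (edKO mean minus WT mean, horizontal axis) for the 299 regions within 5 kb of a WT-only region and for all 27782 regions called in all 6 hearts, as a share of regions (%) per step of 0.25. The medians are -0.16 and -0.04.

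Some WT-only regions lay in groups. Of the 833, 73 (8.76%) had another within 12500 bp, while 133 of 4994 mixed regions (2.66%) and 2.84% of regions called in all hearts lay within 12500 bp of a WT-only region. Mixed regions were not measured against each other. These shares therefore do not show whether WT-only regions group more than other weak regions. Joined at that distance they formed 29 pairs and 5 groups of 3, and 760 stood alone. The share was 15.2% without WT 1, 13.1% without WT 3, 12.99% without WT 4 and 15.5% without edKO 6, where more regions meet the rule, and 5.68% with regions within 500 bp joined first. On each chromosome, from 2.07% to 2.95% of the regions called in all WT hearts were called in no edKO heart.

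The groups of 3 lay at Tspan3 and Pstpip1, at Acot1 and Acot4, in Cacna1h, in Fto and at Irgm2. Members of these groups, and of the pairs below, have 0 bp in edKO hearts by the rule. Called length of an edKO heart in such a stretch therefore comes from other regions, and a higher WT length is largely built in. In the stretch at the downstream end of Tspan3 (chr9:56131619-56142341), WT 1, 3 and 4 had 4267, 2716 and 3141 bp called, and every edKO heart had 0 bp. In Cacna1h, the gene of a T-type calcium channel of the fetal heart (chr17:25408791-25416711), they covered 4370, 3350 and 4462 bp, against 360, 0 and 908 bp in edKO 1, 3 and 6. In Fto, a gene for an RNA demethylase (chr8:91557848-91566725), they covered 5515, 3382 and 4055 bp, against 2571, 1182 and 932 bp. The Fto stretch and that at Irgm2, an interferon-inducible GTPase gene, each hold a region called in all hearts. The stretches at Tspan3, Acot1 and Cacna1h hold none.

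Pairs included the regions near Pou3f3 and those in Adra1b. Around Pou3f3 (chr1:42524349-42533918) the WT hearts had 2331, 2871 and 3203 bp called, against 0 bp in edKO 1 and 3 and a short stretch in edKO 6. In Adra1b (chr11:43783980-43791505) they had 1883, 1936 and 3264 bp, against 0 bp in each edKO heart. WT 4 was the highest at both pairs.

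**Figure D5:**
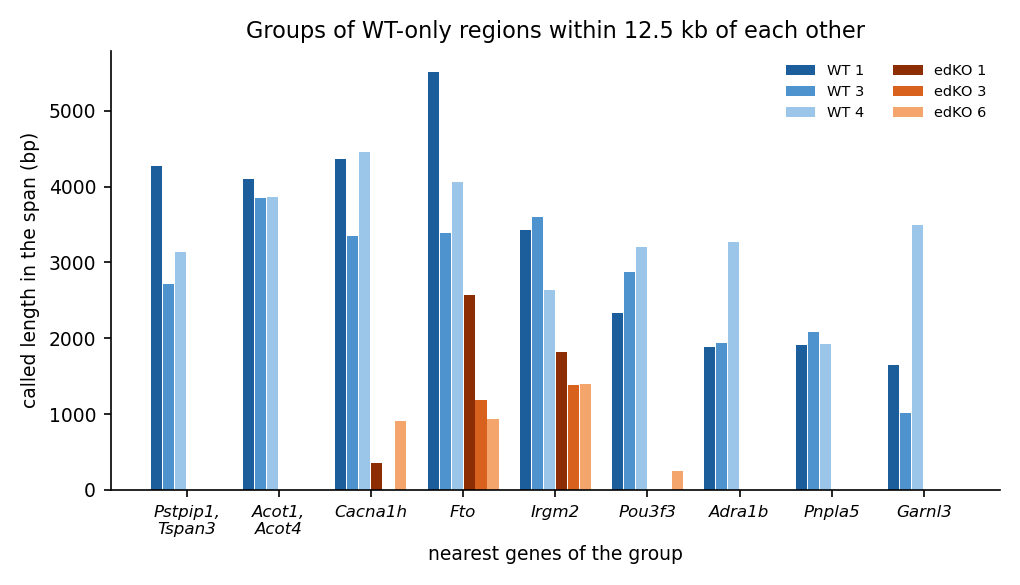
Called length (bp, vertical axis) in each heart within the 5 stretches with 3 WT-only regions and the best-ranked pairs, named by nearest genes. WT bars (blue) exceed edKO bars (orange) in every stretch, and edKO bars are at 0 except in Cacna1h, Fto, Irgm2 and, for edKO 6, Pou3f3. The WT-only regions that define each stretch have 0 bp in edKO hearts by the rule, so this order is largely built in.

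A protein-coding gene lay within 100 kb of 755 of the regions, and these had 667 distinct nearest genes. Of these genes, 596 were nearest to a single region, 56 to 2, 13 to 3, and 2 to 4, Corin and Fto. Members of 21 lists of heart, metabolic and cell type genes were nearest to 77 of the 755 (10.2%), against 313 of 4565 mixed regions (6.86%). Thus 678 of the 755 lay nearest to genes outside all of these lists. The lists were chosen with earlier results of these hearts known, so their counts are descriptions.

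Fatty acid genes were a small part of the set. Genes of fatty acid oxidation were nearest to 6 regions (0.795%, against 0.0876% of mixed regions), best ranked at Decr1, Hadha and Eci2. Genes of fatty acid uptake, lipid storage and thioesterases were nearest to 14 (1.85%, against 0.372%), best ranked at Acot2, Acot4 and Acot1. They include Gpam, which starts triglyceride synthesis, at a mean rank of 60.5, and Mgll, the monoacylglycerol lipase gene, at 59.0.

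Other fuel genes had few regions. Glucose uptake and glycolysis genes were nearest to 5 regions (0.662%, against 0.219%), at Fbp2, Pfkp, Slc16a1, Slc2a1 and Aldoc, none with a mean rank above 35.3. The Fbp2 region (chr13:62858124-62859166), at the start printed above, spanned 626, 842 and 991 bp. The best-ranked region of the list of tricarboxylic acid cycle and ketone genes was at Acat1, which encodes the mitochondrial thiolase of ketone and isoleucine breakdown. It (chr9:53601284-53602473) spanned 1190, 1019 and 978 bp, at ranks of 58.3, 64.4 and 71.4. No region was nearest to the 30 amino acid breakdown genes, where 10 mixed regions (0.219%) were found.

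Among regulators, 5 regions (0.662%, against 0.657% of mixed regions) were nearest to RXR, its partner receptors, other nuclear receptors and their cofactors. They lay at Nrip1, Ppargc1a, Ncoa1, Ppargc1b and Ncoa3, all cofactor genes and not receptors. Cardiac transcription factor genes were nearest to 8 regions (1.06%, against 0.789%), and the best ranked of those within 100 kb of their gene lay 10789 bp from Irx3 (chr8:91812444-91815353), an Iroquois factor gene of the conduction system. The stronger region near Prox1, described above, lies beyond that limit. The Irx3 region spanned 2140, 2704 and 2359 bp, at ranks of 63.0, 69.5 and 74.7. Retinoid and LXR response genes were nearest to 3 (0.397%, against 0.197%). The best ranked lay 71433 bp from the cholesterol exporter gene Abca1 (chr4:53231422-53232960), at 1539, 1385 and 727 bp.

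Contractile and electrical genes had few and mostly weak regions. Sarcomere, Z-disc and calcium handling genes were nearest to 6 regions (0.795%, against 0.942%), best ranked in Cacna1c, the L-type calcium channel gene, at a mean rank of 42.7. Ion channel and conduction genes were nearest to 4 (0.53%, against 0.372%), 3 of them in Cacna1h, where the best (chr17:25413886-25415544) spanned 1122, 1116 and 1659 bp. Fetal isoform and stress genes were nearest to 9 (1.19%, against 0.329%), 4 of them in Corin and 3 in Cacna1h, which is in both lists.

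Signalling genes were nearest to 10 regions (1.32%, against 1.05%), with Adra1b first and Bmpr1a next. Bmpr1a encodes a receptor for bone morphogenetic proteins, and its region (chr14:34488545-34490882) spanned 2248, 2338 and 1843 bp at ranks of 59.2, 80.9 and 78.9. Cell cycle genes were nearest to 3 (0.397%, against 0.307%), best ranked 77518 bp from Mki67, which encodes the proliferation marker Ki-67, at a mean rank of 54.0. No region was nearest to a circadian clock gene, against 8 mixed regions (0.175%).

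Markers of other heart cells were rarely nearest to a WT-only region, and rarely nearest to a mixed region. Endothelial markers were nearest to 3 (0.397%, against 0.526%), at Kdr and Ets1, with a highest mean rank of 43.1. Fibroblast, smooth muscle and pericyte, leukocyte, erythroid, epicardial and neural markers were nearest to 0 of 755. The mixed regions had 14, 7, 1, 2, 4 and 2 of 4565 there, or 0.307% at most. With shares this low, counts of 0 among 755 regions do not set the WT-only regions apart. No WT-only region touched a miRNA hairpin of the RefSeq table. The share for other regions is not given here, so this does not set the WT-only regions apart.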

How the data were processed

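H3K27ac ChIP-seq had been run on 6 single hearts. The authors deposited 1 narrowPeak list per heart, in mm10 coordinates. Per the submitters' processing notes, cutadapt, BWA, SAMtools and MACS2 were used, with settings and controls not given in the sources used here. For each peak the deposited columns hold fold enrichment (a ratio), −log10 of the p-value, −log10 of the q-value (every q-value below 0.05) and a score, which was not used. These values only ranked or filtered peaks within a list.

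Entries of the same span were counted as 1 region. Regions of the hearts were merged at 1 bp overlap, and each heart was scored as called or not. Gene ends came from a RefSeq table (GRCm38.p6, the build of mm10, 20661 protein-coding genes on chromosomes 1 to 19) without exons, and promoter windows from a RefSeq table with 20084 windows, which is not complete. Of 633 listed genes, 621 were matched. Merging, classes and distances were tested on simulated data. The regions and gene lists were chosen with earlier results of these data known. No test was made, since the calls chose the regions and with 3 hearts a genotype the smallest exact two-sided p for a region is 0.1.

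Named regions are the 12 best ranked, the 5 widest, the 6 best at gene ends, the 5 largest groups, the 5 most isolated, the 5 best within 1 kb of retained mark and the best of each list (3 for fatty acid lists). Regions named beside these were chosen after their values were seen. A withheld item is not reported here. Scripts ran on pandas 2.3.3 and numpy 2.4.6 under Python 3.11.15, with intervals from scipy 1.17.1 and plots from matplotlib 3.10.9.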

Additional observations from a re-analysis of the deposited data

How the results depend on the processing

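The 833 regions became 510 when every list was held to a q-value with −log10 of at least 5, 142 when only the WT lists were, and 413 at equal list length. Of the 833, 142, 142 and 265 overlapped regions found in these ways. Under these settings in turn, the median rank was 51.2, 54.8 and 45.6 against 30.2, the median width 727, 811 and 611 bp against 472 bp, and the share within 10 kb of retained mark 47.6%, 41.5% and 46.2% against 52.1%. The share inside genes was 48.6% against 57.3% with stricter WT lists. Joining regions within 500 bp gave 45.7% within 10 kb of retained mark and 5.68% with another WT-only region nearby, against 8.76%. Wider or narrower distances gave 12.005% at gene ends (2.5 kb), 36.7% beside retained mark (5 kb) and 17.0% with another WT-only region (50 kb). Leaving out each heart gave 979 to 2119 regions, 5.28% to 9.20% at gene ends, 54.8% to 59.0% inside genes, median ranks of 25.9 to 32.3, widths of 381.5 to 491 bp, 51.7% to 58.2% within 10 kb of retained mark and 9.60% to 15.5% with another WT-only region nearby. Fewer hearts make the rule looser by construction. No alternative was a test. No paired analysis was possible because the results come from no test, and the labels do not say that hearts sharing a number are related. Depth per heart is unknown, so lost mark and mark under the calling threshold cannot be told apart.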

Other observations

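The X chromosome was outside the rule. By the same calls it held 1472 merged regions, of which 21 were called in all WT hearts and no edKO heart, 0 in all edKO hearts and no WT heart, and 613 in all 6 hearts.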
